A study of Homo sapiens with 6 samples.

Results

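The genes described here encode the proteins of the cytosolic ribosome. They were taken from the deposited table as the protein-coding genes of GENCODE release 29 whose symbols have the form RPL or RPS with a number, together with RPLP0, RPLP1, RPLP2 and RPSA, without genes of the Y chromosome. Of the 29908 genes of the table, 83 were members by this rule. Of these, 31 belong to the small subunit, 46 to the large subunit, and 6 are paralogs, which are second copies of a parent gene. The paralogs are RPL3L, RPL7L1, RPL22L1, RPL26L1, RPL39L and RPS27L. The rule leaves out some further genes of the ribosome, among them FAU, RACK1 and RPL36AL, which are given beside the members.

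The study asked how gene expression in liver cancer cells changes with the level of DAGLA, the gene of diacylglycerol lipase alpha, which makes the endocannabinoid 2-AG. Hep3B, an established human hepatocellular carcinoma line, was transduced at a multiplicity of infection of 5 with lentivirus and selected with puromycin. Hep3B-KD cells carried a short hairpin RNA against DAGLA, and Hep3B-Con cells received a control virus, named shControl in the sample titles and an empty vector in the series' design. The mRNA of 3 Hep3B-Con and 3 Hep3B-KD samples was sequenced. The data therefore describe 1 hairpin in 1 line, and since nothing says that the 3 samples of a group came from separate transductions, p-values measure only the spread between these samples, which may be technical.

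Reads recovered from the FPKM values, summed over the genes of the table, numbered between 15861039 and 17572714 per library. DAGLA itself fell from 9.28 ± 0.229 to 4.62 ± 0.164 FPKM (mean ± SD, n = 3 per group), where FPKM is the read number divided by gene length and library size. All 6 hepatocyte markers examined (ALB, AFP, APOA1, APOB, TTR and SERPINA1) were above 0.5 FPKM in every library, and their sum was 2483 to 2532 FPKM in Hep3B-Con and 3996 to 4013 FPKM in Hep3B-KD. Of the markers of other cell types, only PDGFRB (fibroblasts) and LYZ (leukocytes) reached 0.5 FPKM in every library, and PTPRC, DCN, CDH5 and VWF were each near 0. Their sums were 0.194 to 0.217 FPKM in Hep3B-Con and 0.268 to 0.385 in Hep3B-KD for 3 endothelial markers, 3.45 to 3.74 and 2.44 to 2.48 for 4 fibroblast markers, and 2.08 to 3.19 and 3.04 to 4.04 for leukocyte markers. The part of these markers in the results below was not tested. In bulk RNA, less RNA of these genes per cell and a larger amount of other RNA cannot be told apart.

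A ribosome has a small subunit, which reads the mRNA, and a large subunit, which joins amino acids, and most of its proteins are present in equal number. Ribosomal protein mRNAs are among the most abundant of a cell. Nearly all begin with a C followed by an unbroken run of C and T (U in the mRNA), the terminal oligopyrimidine or TOP motif, through which mTOR and the RNA-binding protein LARP1 control their translation and stability. Several translation factors and hosts of small nucleolar RNAs carry the same motif. In the liver, as in other tissues, ribosome number follows growth.

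The start sites show this shared feature, which the choice of genes did not use. The promoter sequences were those of RefSeq on GRCh38 (assembly patch 14), from 250 bases before to 50 bases after an annotated start, and 66 of the 83 genes had at least 1. A run of at least 5 C or T that held an annotated start was found for 50 of the 66 genes (75.8%), against 11.9% of all 27305 symbols with a promoter and 12.1% of the 9354 symbols among the genes tested. The windows below run from 15 bases before the start to 14 bases after it, 5′ to 3′ on the gene's strand, and capitals mark the run of C and T that holds the start. They show RPS14, the gene with the largest change, a stalk protein (RPLP2), and RPS15, a strongly lowered gene whose annotated start lies outside such a run. The others are 3 parents with their paralogs.
RPS14, chr5:150449725-150449754, minus strand: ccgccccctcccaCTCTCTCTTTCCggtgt
RPLP2, chr11:809952-809981, plus strand: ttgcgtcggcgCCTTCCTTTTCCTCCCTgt
RPS15, chr19:1438381-1438410, plus strand: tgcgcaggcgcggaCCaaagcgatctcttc
RPL22, chr1:6199581-6199610, minus strand: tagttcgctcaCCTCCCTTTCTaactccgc
RPL22L1, chr3:170870181-170870210, minus strand: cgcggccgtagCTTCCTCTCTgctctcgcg
RPL26, chr17:8383179-8383208, minus strand: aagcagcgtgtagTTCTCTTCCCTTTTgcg
RPL26L1, chr5:172958714-172958743, plus strand: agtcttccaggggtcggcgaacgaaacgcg
RPS27, chr1:153990747-153990776, plus strand: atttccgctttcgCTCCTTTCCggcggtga
RPS27L, chr15:63157463-63157492, minus strand: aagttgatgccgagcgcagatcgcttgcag
The run was 12 bases long in RPS14 and 17 in RPLP2. The 50 genes with the run had a median log2 fold change between groups of -0.29 and the 16 without it one of -0.34, a difference that was not tested. Placement of the annotated start decides this class. RPS15, RPL4, RPL9, RPL10A and RPS26 counted as without the run. Yet each has a stretch of at least 5 C or T within the 14 bases after its annotated start. Of the 4 paralogs with a promoter in the table, RPL22L1 alone had a run of at least 5 bases, and it measured 10. The motif CCGGAAG, on either strand and anywhere in the 300-base promoter, was present for 36.4% of the 66 genes, 12.2% of all symbols and 23.3% of the symbols among the genes tested. In the same order, the motif CTCGCGAG was present for 9.09%, 1.23% and 2.54%, AAGATGGC for 10.6%, 3.52% and 6.81%, and GGGCGG for 57.6%, 48.3% and 77.6%. These motifs are matches of letters and no evidence of binding. On the other strand CCGGAAG reads CTTCCGG and GGGCGG reads CCGCCC, and both can share bases with the runs of C and T. Their shares are therefore not independent of the run.

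The ribosomal protein genes were lower in Hep3B-KD as a group, by a small amount in most of them. Of the 82 genes that averaged 0.5 FPKM or more, 68 were lower at an adjusted p under 0.05 (limma, Benjamini-Hochberg over the 14221 genes tested) and 0 were higher. Over all genes tested, 23.8% were called lower and 36.1% higher. At an unadjusted p under 0.05 the count of higher ribosomal protein genes was also 0, as it was with voom on the recovered reads. The member left out by the filter, RPL3L, the muscle form of RPL3, had 0 to 0.0871 FPKM.

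Together the 83 genes made up 5.00%, 5.03% and 5.12% of the FPKM sum in the 3 Hep3B-Con libraries and 4.05%, 4.06% and 4.02% in the 3 Hep3B-KD libraries. The 2 sets of values did not overlap, and the Hep3B-KD mean was 80.1% of the Hep3B-Con mean. Counted in reads, the share went from 3.84% ± 0.0435 to 2.97% ± 0.0239 (SD, n = 3). The large subunit accounted for 2.91% ± 0.0401 of the FPKM sum in Hep3B-Con and 2.29% ± 0.00394 in Hep3B-KD, and the small subunit for 2.10% ± 0.0224 and 1.72% ± 0.02. No test was run on these sums, since the genes were chosen with earlier results of these data known.

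The median log2 fold change (Hep3B-KD against Hep3B-Con, on log2(FPKM + 0.1), which understates the change of low genes) was -0.30 for the 82 genes and 0.11 for all genes tested. The middle 50% of the genes lay between -0.40 and -0.20, and 62 of the 82 within 0.2 of their own median. All genes tested were spread more widely, with quartiles at -0.21 and 0.47. Every Hep3B-KD library was below every Hep3B-Con library for 71 genes, which was so for 26.3% of all genes tested, and above for 0. The fold changes were negative for 79 genes. The size of the shift moved with the scaling of the libraries. When the libraries were centred on the median log ratio, the median of all genes went from 0.11 to 0.0059, 73 ribosomal protein genes were lower and 0 higher, and the median of the genes was -0.40. The share of all genes called lower was then 30.3%, and calls over all genes split into 4308 lower and 4064 higher, in place of 3388 and 5133. Under quantile normalization 59 genes were lower and 1, RPL35, was higher, and the median was -0.18. Relative to the median of all genes, the ribosomal protein genes stood at -0.41 as deposited and when centred, and at -0.19 under quantile normalization.

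**Figure D1:**
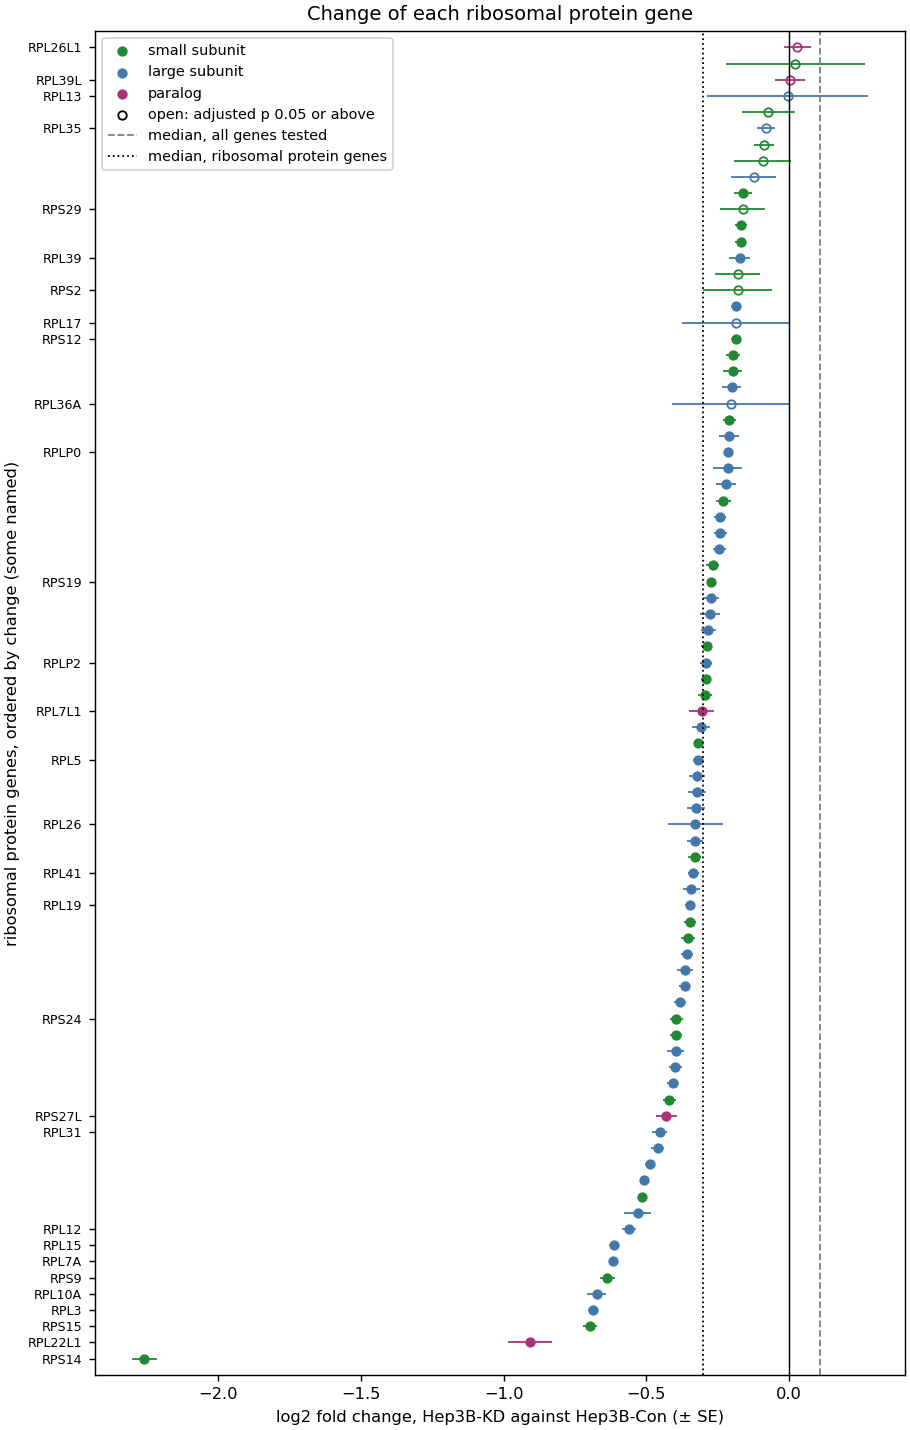
Log2 fold change of Hep3B-KD against Hep3B-Con for each of the 82 genes tested, ordered by size, with the standard error as a bar and colour marking small subunit, large subunit and paralogs. The genes with the largest changes and some others described in the text are named. Filled points passed an adjusted p under 0.05, and the lines mark 0, the median of these genes (dotted, -0.30) and the median of all genes tested (dashed, 0.11). RPS14 stands alone at -2.26.

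RPS14, a small subunit protein needed for the maturation of the small subunit's rRNA and the gene whose loss of one copy marks the 5q- form of myelodysplastic syndrome, changed by far more than its partners. Its FPKM was 57.4, 55.7 and 58.4 in Hep3B-Con and 12.5, 12 and 11.2 in Hep3B-KD, with 4939 to 5143 reads behind each Hep3B-Con value and 945 to 1007 behind each Hep3B-KD value. The spread within each group was small beside the 4.82-fold gap between them. The log2 fold change was -2.26 (SE 0.0439, adjusted p = 2.42e-07 from limma). It was the only one of the 82 genes at least 2-fold lower with an adjusted p under 0.05, a call made for 2.94% of all genes tested. RPS14 (ENSG00000164587) lies at chr5:150442635-150449756 of GRCh38, on the minus strand. Of the 3 tested genes on either side of it, the nearest in each direction were CD74, the invariant chain of class II MHC, and NDST1, a heparan sulfate enzyme. Both were higher, with log2 fold changes of 0.94 and 0.17 (adjusted p = 5.99e-06 and 0.0021 from limma). With libraries centred, NDST1 had a log2 fold change of 0.063 and was no longer called. TCOF1, which encodes the nucleolar protein treacle and is the next gene beyond CD74, was lower by 0.69 on the log2 scale (adjusted p = 5.7e-06). Without RPS14 the median of the other ribosomal protein genes was still -0.30, and their summed share went from 5.03% to 4.04%.

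The hairpin of Hep3B-KD cells was designed against a 19-base site in the coding sequence of DAGLA, at chr11:61740504-61740522 of GRCh38 on the plus strand. The site is printed with the bases that pair with the seed of the guide strand, its bases 2 to 8, in capitals, and below it stands the one place in RPS14 with the same 7 letters, since RPS14 is the gene that moved most.
DAGLA target site: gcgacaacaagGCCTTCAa
RPS14, 3′ UTR, chr5:150444244-150444250 for the capitals, minus strand: taataaattGCCTTCAtgtaaactg
Beyond these 7 letters the resemblance was low, and the best ungapped alignment of the 19 bases to a coding transcript of RPS14 matched 12. The 7 letters stood in the 3′ UTR of 4 of the 5 coding transcripts of RPS14. They occurred in the 3′ UTR of at least 1 coding transcript for 12 of the 82 genes (14.6%), against 15.6% of the 11299 genes tested that have a coding transcript. The other 11 genes had log2 fold changes from -0.51 to -0.09 with a median of -0.32, beside -0.29 for the 70 genes with no such match. Counting the whole transcript, 21 of the 82 genes (25.6%) held the letters in at least 1 coding transcript, against 34.5% of all such genes tested. RPL7A, RPL15, RPL4 and RPL5 held them in at least 50% of their coding transcripts, with log2 fold changes of -0.62, -0.61, -0.51 and -0.32. With RPS14, the gene that prompted the search, these 5 genes had a median of -0.61, beside -0.29 for the other 77. RPS14 counts toward the first median, and the share of all genes tested that pass this 50% cutoff is not given. These matches were looked up after the changes were known, and their part in the changes was not tested.

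The 7 genes after RPS14 with the strongest decrease were 1 paralog and 6 subunit genes. RPL22L1, the paralog of RPL22, had 12.7, 12.6 and 12.8 FPKM in Hep3B-Con and 5.91, 7.09 and 7.23 in Hep3B-KD, a log2 fold change of -0.91 (SE 0.0776, adjusted p = 8.31e-05). RPS15, a protein of the head of the small subunit, had 288, 291 and 299 FPKM against 184, 175 and 182. RPL3, which lies next to the site of peptide bond formation, had 287, 287 and 294 FPKM against 178, 180 and 182. In each of these genes every Hep3B-KD library was below every Hep3B-Con library by several times the spread within a group. RPL10A, of the mobile stalk through which tRNA leaves, had 327, 329 and 332 FPKM against 217, 206 and 197. RPS9 (-0.64), RPL7A (-0.62) and RPL15 (-0.61) followed on the log2 scale. The log2 fold changes of RPS15, RPL3 and RPL10A were -0.70, -0.69 and -0.67, and adjusted p-values of these 6 subunit genes lay between 3.56e-07 and 8.44e-06.

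By role in the ribosome, decreases were found in every part examined. The counts by role stand beside 82.9% lower among all 82 ribosomal protein genes and 23.8% over all genes tested. In the stalk that recruits elongation factors, all 4 genes were lower, and their median change was -0.32 on the log2 scale. RPL12 at its base went from 213 ± 5.61 to 145 ± 2.2 FPKM (SD, n = 3), and RPLP1 and RPLP2, the mobile tips, changed by -0.34 and -0.29. RPLP0, which anchors the tips, had 357, 363 and 364 FPKM against 312, 308 and 315, a log2 fold change of -0.21 that became 0.04 under quantile normalization. Both partners of 5S rRNA, RPL5 and RPL11, which also bind MDM2 when ribosome assembly stalls, were lower, by 0.32 and 0.18 on the log2 scale, and the call of RPL11 was lost under quantile normalization. At the path of the mRNA into the small subunit, RPS9 and RPS3 were lower (-0.64 and -0.33), and RPS2 had a log2 fold change of -0.18 that did not pass (adjusted p = 0.239), although it was called at -0.31 without Hep3B-KD replicate 2.

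The exit tunnel for the new protein and its rim gave 5 lower genes of 7 (71.4%), and the median change was -0.21 on the log2 scale. RPL31 (-0.45) and RPL19 (-0.35) led them. RPL23A and RPL39 changed by -0.21 and -0.17. The value of RPL23A was -0.016 and not called with the reads of its pseudogenes added, and that of RPL39 was not called under quantile normalization. RPL26 had 3.71, 3.37 and 3.39 FPKM against 2.96, 2.95 and 2.4, a call that was lost without the filter, without Hep3B-Con replicate 1, with reads of its pseudogenes added and in a linear model per gene. RPL35, a docking site for the signal recognition particle, had 236, 238 and 253 FPKM against 228, 235 and 225, which is -0.08 on the log2 scale (adjusted p = 0.0598). It passed at -0.10 without Hep3B-Con replicate 1 and at -0.18 with libraries centred, and the value was 0.09 under quantile normalization. RPL17 was too low to judge, with 0.659 FPKM on average from 27.2 reads per library.

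Of a list of 18 genes mutated in Diamond-Blackfan anaemia, an inherited failure of red cell formation, 14 were lower (77.8%). The share was 82.9% among all 82 ribosomal protein genes and 23.8% over all genes tested. The median change of the 18 was -0.24 on the log2 scale. The list was set for this report and may leave out other genes of the disease. RPS19, the most often mutated, had 178, 176 and 180 FPKM in Hep3B-Con and 148, 148 and 147 in Hep3B-KD. RPS24 changed by -0.40. RPS26 changed by -0.20 and RPS27 by -0.17, which became -0.02 and 0.03, neither a lower call, under quantile normalization. Those that did not pass included RPL35, and RPS10 and RPS29, which had means of 1.16 and 5.00 FPKM.

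Of the 14 genes that were not called, 8 had a mean under 20 FPKM. RPL17, RPS10, RPL36A and RPS15A were the 4 lowest of the 82, with 0.659 to 2.64 FPKM on average. Each of the 4 shares its strand and part of its position in GENCODE release 29 with another protein-coding gene, among them the read-through genes RPL17-C18orf32, RPL36A-HNRNPH2 and RPS10-NUDT3. Such an overlap was found for 9 of the 82 genes. Those 9 had a median level of 2.93 FPKM and 4 were called lower, while the other 73 had a median of 128 FPKM and 64 were called lower. Whether reads that fit both genes were dropped in counting was not tested, and levels of these 9 genes are uncertain for that reason. The median log2 fold change without them was -0.31.

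RPL13 and RPS2 were abundant, and their libraries scattered within groups. RPL13, a large subunit protein, had 122, 61.5 and 69.5 FPKM in Hep3B-Con and 62, 94.4 and 88.5 in Hep3B-KD. RPS2 had 363, 303 and 321 FPKM against 258, 348 and 271. In both genes Hep3B-Con replicate 1 and Hep3B-KD replicate 2 were the highest of their groups. On the log2 scale RPL13 had a within-group SD of 0.44, the largest of the 82 genes, and RPS2 of 0.19, while the median gene among the 82 had 0.03. With the spread in RPL13, its log2 fold change of -0.01 has an SE of 0.281, and the value was positive without Hep3B-Con replicate 1 (0.30) or without Hep3B-KD replicate 1 (0.18), with pseudogene reads added, and under 3 of the 4 scalings. Some other genes had the same order of libraries, and were picked after their values were seen. FTH1, the ferritin heavy chain, had 160, 7.88 and 10.6 FPKM in Hep3B-Con and 10.2, 179 and 32.9 in Hep3B-KD, and PRELID1, a mitochondrial lipid transfer protein, had 33.5, 11.8 and 13.4 against 13.8, 32.9 and 22.3. The RPL13 pseudogene RPL13P12 had 51.2, 24.8 and 30.8 FPKM against 32.6, 38.5 and 40. Its order matched that of its parent in Hep3B-Con, but in Hep3B-KD replicate 3 was slightly above replicate 2. Among the 2353 genes that averaged 20 FPKM or more, RPL13 had the 5th largest within-group SD.

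The remaining genes give the breadth of the change. In the small subunit 24 of 31 genes were lower and 0 higher (median log2 fold change -0.27), and in the large subunit 41 of 46 were lower and 0 higher (median -0.32). The difference between the subunits was not tested. The most abundant genes were lower too. RPS12 had 697, 689.5 and 704 FPKM in Hep3B-Con and 619, 616 and 602 in Hep3B-KD, a log2 fold change of -0.19 (SE 0.0156, adjusted p = 7.29e-05 from limma). RPL41, the smallest protein of the ribosome, had 502, 516 and 510 against 396, 411 and 403. The groups of these genes lay apart by more than their spread. RPL19 had 488, 491 and 501 FPKM against 392, 389 and 380. RPL8, which lies near the site of peptide bond formation, had 438, 441 and 451 against 340, 342 and 355. Among these 4 genes the decrease was at most 1.28-fold.

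Levels differed widely between the genes on the deposited scale. Mean FPKM over the 6 libraries ran from 0.659 for RPL17 to 655 for RPS12, and RPL41, RPL19 and RPL8 were also among the highest 5. FPKM here is per length of all exons of a gene merged, which for these genes is a median of 4.45 times the length of a coding transcript, and up to 16.9 times in RPS29. Recomputed per median length of the coding transcripts, a scale added after the data were seen, RPLP0 came highest with 1591 and RPS12 reached 796. Among the 68 subunit genes with no overlapping coding gene on their strand, the quartiles of the level were 73.2 and 236 FPKM as deposited, a ratio of 3.22, and 378 and 917 per transcript length, a ratio of 2.42. Fold changes between groups are not touched by the choice of length. Across the 82 genes, the Spearman correlation of the log2 fold change was -0.41 with the level per transcript length, -0.31 with the coding length, -0.30 with the deposited FPKM, -0.19 with the exon length, -0.12 with GC content and -0.08 with the transcript length, where all points share the same 6 libraries. Pearson correlations were weaker, at -0.14 and -0.15 for the first 2 of these.

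The paralogs did not move as one. RPL22L1, RPS27L and RPL7L1 were lower, by 0.91, 0.43 and 0.31 on the log2 scale. RPL39L had 22.3, 24.4 and 22.6 FPKM in Hep3B-Con and 24.4, 21.9 and 23 in Hep3B-KD, and RPL26L1 had 19.7, 20.4 and 22.2 against 21.4, 21.2 and 20.9, so that the groups overlapped in both. Their log2 fold changes of 0.00 and 0.03 turned negative when libraries were centred. The ratio of a paralog to its parent within a library is not moved by a factor common to that library, and it was compared for 6 pairs, RPL36AL with RPL36A included. The log2 ratio of RPL22L1 to RPL22 was -0.46 ± 0.0837 in Hep3B-Con and -0.83 ± 0.145 in Hep3B-KD (SD, n = 3). That of RPS27L to RPS27 went from -4.83 ± 0.0648 to -5.10 ± 0.00921. In the other direction, RPL26L1 to RPL26 went from 2.54 ± 0.152 to 2.90 ± 0.15 and RPL7L1 to RPL7 from -2.39 ± 0.0485 to -2.24 ± 0.0751. In these 4 pairs the groups did not overlap, which gives p = 0.1 in a two-sided exact permutation test, the smallest that 3 libraries against 3 allow, and 0.15 after Benjamini-Hochberg adjustment over the 6 pairs. RPL39L to RPL39 differed by 0.18 with overlapping groups (exact permutation p = 0.2, adjusted 0.24), and RPL36AL to RPL36A by 0.01 (exact permutation p = 1). No pair could pass 0.05 in this design. The parents RPL22, RPL26 and RPL36A each overlap another coding gene of their strand, so their levels and the height of these ratios are uncertain. RPL26 and RPL36A had on average only 132 and 78.3 reads per library. Quantile normalization, which moves genes of one library by different amounts and was added for these ratios after the data were seen, kept the sign of all 6 differences and took RPS27L to RPS27 from -0.26 to -0.55, RPL26L1 to RPL26 from 0.36 to 0.60 and RPL36AL to RPL36A from 0.01 to 0.43, while RPL26L1 to RPL26 differed by 0.23 with pseudogene reads added.

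Among the genes of the ribosome that the symbol rule leaves out, RACK1 and RPL36AL were lower. RACK1, the signalling scaffold on the small subunit, went from 195 ± 5.71 to 146 ± 0.709 FPKM (SD, n = 3). RPL36AL was lower by 0.19 on the log2 scale, a call lost under quantile normalization. FAU, a small subunit protein fused to a ubiquitin-like domain, had 24.2 ± 2.75 and 25 ± 0.771 FPKM, a log2 fold change of 0.05 that turned to -0.05 when libraries were centred and was called higher, at 0.14, without Hep3B-Con replicate 3.

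A list of 14 other genes whose mRNAs carry the TOP motif had 12 lower and 0 higher, and the median of their log2 fold changes was -0.23. The 10 translation factors on it gave 9 lower and a median of -0.28, and the other 4, which are HNRNPA1 (splicing), NPM1 (nucleolus), NAP1L1 (histone chaperone) and TPT1, gave 3 lower and a median of -0.15. EEF1B2, the exchange factor of elongation factor 1, went from 239 ± 1.06 to 151 ± 2.7 FPKM, EEF1A1, which delivers tRNA, from 1753 ± 13.4 to 1284 ± 6.85, and EEF2, which moves the ribosome along, from 1165 ± 8.66 to 900.1 ± 11.2 (SD, n = 3). Of the 11 host genes of small nucleolar RNAs with the motif, 7 were lower and 0 higher, with a median of -0.28, led by SNHG3 (-0.53) and with GAS5 at -0.33. Of the 8 chaperones that escort ribosomal proteins to the nucleolus, 4 were lower, among them GRWD1, the escort of RPL3 (-0.42). The regulators of these mRNAs were divided, 5 lower (38.5%) and 4 higher of 13, beside 23.8% lower and 36.1% higher over all genes tested. LARP1 changed by -0.17 on the log2 scale (adjusted p = 0.000217 from limma), a call lost under quantile normalization, and MTOR had a log2 fold change of -0.01 that did not pass. The translational repressor EIF4EBP1 fell from 183 ± 4.51 to 83.6 ± 2.68 FPKM, and EIF4EBP2 and the S6 kinase gene RPS6KB1 were higher by 0.48 and 0.50 on the log2 scale.

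The proteins of the mitochondrial ribosome, which is built from another set of genes, had a median log2 fold change of -0.03 over 77 genes tested. Of these, 27 were lower (35.1%), 12 higher and 38 not called, beside 23.8% lower and 36.1% higher over all genes tested. MRPS14 and MRPL37 were lowest, at -1.17 and -0.92, and MRPL33 was highest at 0.94. The lists beside the ribosomal proteins were described by counts only, and no difference between lists was tested.

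Pseudogenes named after these genes, whose reads cannot be told apart with certainty from those of the parents, were present as 386 rows. They held 0.949% ± 0.0101 of the FPKM sum in Hep3B-Con and 0.775% ± 0.0154 in Hep3B-KD (SD, n = 3), a ratio of 81.6% that stood beside 80.1% for the parents. Counted in reads, the share of the pseudogenes was 0.159% in Hep3B-Con and 0.127% in Hep3B-KD. RPL9P9 had 712, 787 and 762 FPKM against 561, 567 and 547. Its parent RPL9 had a mean of 61.2 FPKM in Hep3B-Con and 48.9 in Hep3B-KD. These levels are not alike, since FPKM divides by 717 bases for RPL9P9 and by 5022 for the merged exons of RPL9. In reads, the Hep3B-Con libraries held 8967, 9812 and 9098 on RPL9P9 and 5255, 5413 and 5184 on RPL9. Of all reads on RPL9 and its 5 pseudogenes, 63.5% were on the pseudogenes, the only case above 50%, while for 56 of 67 parents with a pseudogene the share was under 10%. Beside 23.8% lower and 36.1% higher over all genes tested, 30 of the 92 pseudogenes tested (32.6%) were lower and 6 higher. With their reads added to the parents, 66 of the 82 genes were lower and the median was -0.29.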

How the data were processed

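RNA sequencing of 3 Hep3B-Con and 3 Hep3B-KD samples was used, grouped by the sample titles. The authors deposited FPKM values for 29908 genes in 1 table with 1 column per library, and these were read as deposited. The submitters' processing notes name TopHat2 2.0.12, Bowtie2 2.0.6 and GRCh37, and the counter is not given in the sources used here. The library total of reads on genes was fitted from the FPKM values themselves. FPKM times that total and the merged exon length in GENCODE release 29 (GRCh38) came within 0.01 of a whole read for 100% of values. Coordinates are therefore those of GRCh38. Values were tested as log2(FPKM + 0.1) in the 14221 genes that averaged 0.5 FPKM or more, with limma 3.58.1 (trend) in R 4.3.3 and Benjamini-Hochberg adjustment over all of them, after a test on reads drawn with known changes. Standard errors and p-values follow the spread between the 3 libraries of a group. Single genes were named where they ranked in the 5 highest or lowest by level, the 8 with the largest change in each direction, a paralog pair or a functional list, and RPL13, FTH1, PRELID1, RPL13P12 and the neighbours of RPS14 after their values were seen. A few genes that met these criteria are not reported here. The ribosomal protein genes and the lists were chosen with earlier results of these data known. Alternatives changed the filter, pseudocount, scaling, variance model, replicate block, read model, pseudogene reads and libraries used. Tables were handled in Python 3.11.15 with pandas 2.3.3.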

Additional observations from a re-analysis of the deposited data

How the results depend on the processing

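The decrease of the ribosomal protein genes kept its direction under all 19 alternatives, with 59 to 73 of them lower in place of 68, and a median log2 fold change from -0.40 to -0.18 in place of -0.30. The median was -0.40 with libraries centred on the median log ratio, -0.18 under quantile normalization and -0.27 after rescaling to the same FPKM sum (TPM). Under quantile normalization 1 gene was higher, and 56 of the 68 genes called lower remained so. With voom on the recovered reads 72 were lower, and over all genes 3518 were lower and 5460 higher. Without 1 library at a time, 68 or 69 were lower and the median ran from -0.31 to -0.29. The change in the summed share was -1.005 percentage points and ran from -1.03 to -0.97 without 1 library at a time. The replicate numbers did not pair the samples (correlations of same-numbered deviations of -0.013, -0.066 and -0.0011), and with the replicate block 68 genes were lower and 0 higher, so that the block changed no call of a named gene.

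Directions of some single genes turned. Under quantile normalization the log2 fold change was 0.15 for RPL13, 0.091 for RPL35, 0.035 for RPLP0, 0.088 for RPS2, 0.035 for RPS27 and -0.24 for RPS10. With libraries centred it was -0.054 for FAU, -0.075 for RPL26L1, -0.10 for RPL39L and -0.081 for RPS10. RPL13 was also at 0.022 after rescaling to the same FPKM sum, at 0.0064 with that sum taken over other genes, and at 0.0022 with pseudogene reads added, which left RPS10 at -0.14. MTOR was at 0.020 and 0.0054 after those 2 rescalings. The RPL36AL to RPL36A ratio differed by -0.075 with a pseudocount of 1 and by -0.11 with pseudogene reads added. Without 1 library at a time, log2 fold changes ran from -0.20 to 0.30 for RPL13, -0.0081 to 0.079 for RPL26L1, -0.037 to 0.043 for RPL39L, -0.037 to 0.017 for MTOR and -0.15 to 0.25 for RPS10, and the difference in the RPL36AL to RPL36A ratio from -0.18 to 0.16. The causes of these turns were not tested. A change of the median size could not be detected in RPL17, RPS10 and RPL36A, which had few reads and large standard errors. The same holds for RPL13, which had many reads but an SE of 0.281.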
